A study of Mus musculus with 4 samples.

Results

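Homologous recombination genes were examined in single mouse embryonic stem (ES) cells, as a set of 9 genes among the 46078 with an identifier in the deposited tables. The set is made of the mediators Brca1, Palb2 and Brca2, the paralogs Rad51b, Rad51c, Rad51d, Xrcc2 and Xrcc3, and the translocase gene Rad54l. The members were chosen by function, starting from Xrcc3, which was picked because it had no count in small N2B27 cells, to ask whether its partners follow it. Values of the comparison between small and ungated N2B27 cells are therefore a description. Each of the 9 members had a mean of at least 20 normalized counts over the kept cells, and 14962 of all genes reached the mean of 1 that was asked of a gene for comparison.

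Homologous recombination repairs broken DNA by copying an intact sister chromatid, and is therefore most active in S and G2 phase. BRCA1 acts at the resected break and recruits PALB2, which links it to BRCA2, and BRCA2 prepares single-stranded DNA for the search for the sister sequence. The paralogs assist this step in a pair of complexes, BCDX2 (RAD51B, RAD51C, RAD51D and XRCC2) and CX3 (RAD51C and XRCC3), and RAD54L moves along DNA to drive strand invasion. ES cells divide fast, spend little time in G1 and rely strongly on this route.

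Wild-type E14 ES cells had been grown in 2i, in which inhibitors of MEK and GSK3, with leukemia inhibitory factor by the study's methods, keep them naive, and all 4 groups share this origin. Before plating, cells were sorted on forward and side scatter through a gate for small cells, meant to hold cells leaving mitosis and in G1, or were taken ungated. After 6 h in 2i or in N2B27, the medium without these additions in which differentiation starts, single cells were sorted and sequenced. The groups are the 2i small and 2i ungated cells and, from the other medium, the N2B27 small and N2B27 ungated cells. Each is 1 sample of 24 cells, so that no test between groups is possible and every interval below covers counting error only, of reads for summed counts and of the cells in a sample for shares, and not the spread between samples. Size was gated 6 h before harvest, so the gate does not give a cell's size when it was sequenced. The medium of a cell cannot be told apart from its sequencing lane or from the deposited set of 48 cells it belongs to. Each such set is called a plate below, although sample titles and column names do not name a plate. The gate cannot be told apart from index row, since small and ungated cells carried different indices. Quality limits kept 12, 22, 20 and 21 cells in the order above, with 1364155 to 4844170 counts on genes per cell. Of 8 ES cell markers, 8 had a mean of at least 20 in every group, whereas 0 of 6 markers of primitive endoderm, of fibroblasts and of 2-cell-like cells did so in any group. For trophoblast 1 to 3 of 6 markers and for primed epiblast 2 of 6 reached that mean.

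Members were either clearly counted in a cell or nearly absent from it. Of 675 values (9 genes in 75 kept cells), 343 were 0, 97 were 1 to 9 counts and 235 were 10 counts or more, and the values of 1 to 9 held 0.335% of all member counts. A cell with at least 10 counts of a gene is below called a cell that clearly expressed it. On this measure 2i ungated cells expressed a median of 5 of the 9 members (range 2 to 6), N2B27 ungated cells 3 (1 to 6), N2B27 small cells 2 (0 to 5) and 2i small cells 1.5 (0 to 9). The gene and cell pairs that were clearly expressed came to 101 of 198 in 2i ungated (51.0%), 59 of 189 in N2B27 ungated (31.2%), 43 of 180 in N2B27 small (23.9%) and 32 of 108 in 2i small cells (29.6%). The small groups were also those with fewer genes detected, at a median of 7603 in 2i and 7462.5 in N2B27 against 9515.5 and 8200 in the ungated groups. When each cell was thinned to 1360000 counts, the pairs numbered 94, 55, 41 and 32 in the same order. The share of such pairs over all genes was not taken.

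**Figure D1:**
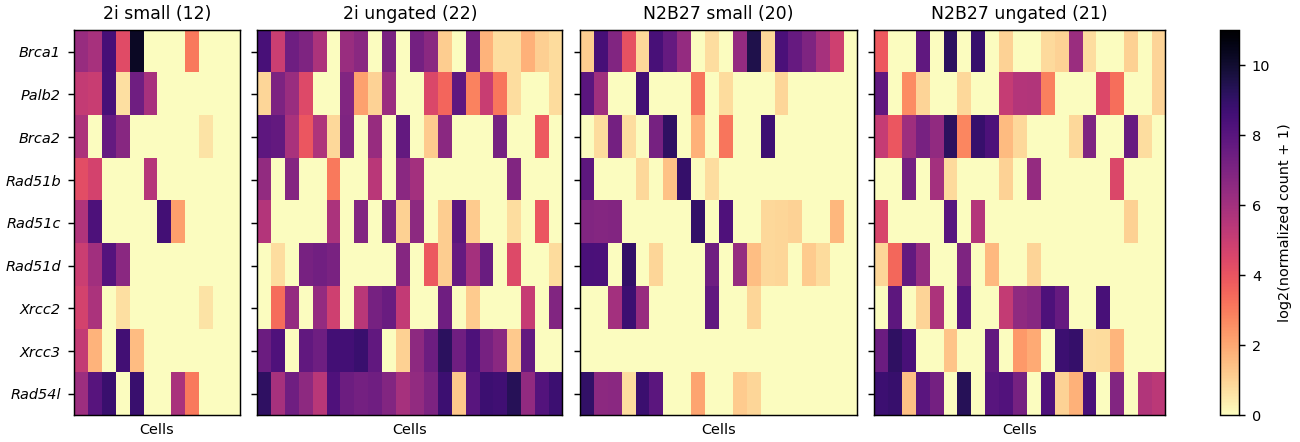
Level of each of the 9 members (rows) in each kept cell (columns) as log2(normalized count + 1), by group, with cells ordered by the number of members clearly expressed. The Xrcc3 row is empty in all 20 N2B27 small cells, whereas the Rad54l row reaches 10 counts in 21 of 22 cells of 2i ungated, and no N2B27 small cell clearly expresses more than 5 members.

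Per kilobase of exon, Xrcc3 and Rad54l were the most abundant members in ungated cells of both media and did not lead in N2B27 small cells. Mean normalized counts per kilobase in 2i ungated cells were 67.5 for Xrcc3 and 29.6 for Rad54l, then 12.6 for Rad51d and 8.09 for Xrcc2, and lowest for Brca2 at 4.09. In N2B27 ungated cells Xrcc3 (38.2) and Rad54l (21.4) again led, and Palb2 was lowest at 2.49. The order differed in N2B27 small cells, which were led by Rad51d (19.2), Brca1 (15.7) and Rad51c (13.3), with Xrcc3 last at 0. In 2i small cells Brca1 (17.0), Rad51c (14.3), Rad54l (14.2) and Xrcc3 (13.2) stood closest together. The Brca1 mean there includes 1 cell with 1225 normalized counts. Neighbours in these orders rest on few cells each and cannot be ranked against each other beyond the spread between cells.

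In N2B27, Xrcc3 had no count in kept small cells, whereas 5 of its 8 partners had higher means there. By share of clearly expressing cells, 5 of the 8 partners (Xrcc2, Rad51b, Rad54l, Brca2 and Palb2) were lower in small cells. This measure was not taken over all genes, and N2B27 small cells had fewer genes detected, at a median of 7462.5 against 8200. Beside Xrcc3, Rad54l was more than 2-fold lower in N2B27 small than in N2B27 ungated cells, and Rad51b, Rad51c, Rad51d and Brca1 were more than 2-fold higher. Thus 2 of 9 members were lower by at least 2-fold, beside 22.7% of all genes tested, and 4 of 9 were higher, beside 16.7% of all genes. With Xrcc3, 4 of 9 log2 ratios of mean normalized counts lay below 0, beside 7981 of 14962 genes, and 5 above it, and with means of log2 values 6 of 9 lay below 0. Their median was 0.91, beside -0.08 over all genes. With size factors from spike-ins it was below 0, at -0.16, beside -0.77 over all genes. With means of log2 values it was -0.53, beside -0.36 over all genes.

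Xrcc3 (ENSMUSG00000021287, chr12:111803192-111813873, minus strand, GRCm38) encodes the paralog that pairs with RAD51C in CX3. It had 0 counts in all 20 kept N2B27 small cells, which allows a share of cells with a count of up to 15% by a floor of 3 cells and 16.8% by the exact Clopper-Pearson interval, and the only count in that sample was 1 count in a well that had been left out. In N2B27 ungated cells it ranged from 0 to 546 normalized counts with a median of 0.724, a mean of 105 and 2564 counts in all (exact Poisson interval 2466 to 2665). There, 12 of 21 cells had a count (57.1%, exact Clopper-Pearson interval 34.0% to 78.2%), and 6 of them expressed it clearly, at 179 to 546 normalized counts. The groups overlap at 0, where 9 ungated cells also stood. Against a floor of 3 counts over the group, the means differed 700-fold. This floor counts reads, and 1 clearly expressing cell would exceed it, so 700-fold is no lower bound. Among 13370 genes with a mean of at least 1 in N2B27 ungated cells, 7.93% had no count in any kept N2B27 small cell, and of these Xrcc3 had the highest mean in ungated cells. Xrcc3 was picked for having no count there, so this rank is a description only.

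The stretch before the Xrcc3 start site is printed with those of Rad51b, which had the higher mean in N2B27 small cells, and Brca2, because these are the member windows free of annotated exons. The 250 bases before the start sites, from RefSeq on GRCm38.p6, were searched on both strands for the NF-Y word CCAAT, the CHR word TTTGAA and the E2F words TTTGGCGC, TTTCGCGC and TTTCCCGC, which are bound by factors that control cell cycle genes. Capitals mark every match.
Xrcc3, chr12:111813880-111814129, minus strand: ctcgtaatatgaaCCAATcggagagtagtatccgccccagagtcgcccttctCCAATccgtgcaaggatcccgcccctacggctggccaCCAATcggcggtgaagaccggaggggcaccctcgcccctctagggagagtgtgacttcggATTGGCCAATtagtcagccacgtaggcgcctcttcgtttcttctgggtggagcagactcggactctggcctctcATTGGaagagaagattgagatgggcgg
Rad51b, chr12:79297032-79297281, plus strand: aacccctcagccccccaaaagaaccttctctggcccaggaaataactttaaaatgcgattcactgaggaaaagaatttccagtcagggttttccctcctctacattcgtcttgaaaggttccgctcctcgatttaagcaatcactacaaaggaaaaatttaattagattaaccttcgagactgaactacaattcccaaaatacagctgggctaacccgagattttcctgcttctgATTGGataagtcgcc
Brca2, chr5:150522371-150522620, plus strand: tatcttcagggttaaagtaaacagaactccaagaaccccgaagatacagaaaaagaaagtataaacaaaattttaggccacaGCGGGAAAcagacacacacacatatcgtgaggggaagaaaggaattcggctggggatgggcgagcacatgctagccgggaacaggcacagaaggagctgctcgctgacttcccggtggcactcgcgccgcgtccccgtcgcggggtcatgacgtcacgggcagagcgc
The Xrcc3 window held CCAAT 6 times, 4 times as written and 2 times on the other strand. Of 32851 windows of this length 33.9% held CCAAT at least once, 0.840% at least 4 times and 0.0578% (19 windows) at least 6 times. Among the 7 members with a window, Rad51b, Rad54l and Brca1 held CCAAT 1 time each, and Rad51c, Brca2 and Palb2 did not hold it, while Xrcc2 and Rad51d were not searched. The Brca2 window held TTTCCCGC 1 time, on the other strand and overlapping no other word, against 0.895% of all windows. No member window held TTTGAA, found in 16.0% of all windows, or the remaining E2F words, found in 0.417% and 0.256%. A match is a string of letters and not a bound site.

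Among the mediators, Brca1 stood out in N2B27 small cells. Brca1 (ENSMUSG00000017146, chr11:101488764-101551955, minus strand) encodes a ubiquitin ligase subunit that acts early at breaks. It ranged from 0 to 736 normalized counts in N2B27 small cells, with a median of 70.3 and a mean of 134, and from 0 to 577 in N2B27 ungated cells, with a median of 0.694 and a mean of 65.0. Counts summed to 2990 (2884 to 3099) and 1561 (1485 to 1640). The small group was higher by 2.06-fold in the mean, although the groups overlapped over nearly their whole range. Clear expression was seen in 13 of 20 small cells, or 65.0% (40.8% to 84.6%), and in 5 of 21 ungated cells, or 23.8% (8.22% to 47.2%), a difference of 41.2 percentage points (Newcombe interval 10.8 to 62.6). Of the 43 clearly expressed pairs of N2B27 small cells, Brca1 alone gave 30.2%, against 8.47% in N2B27 ungated cells.

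Palb2 and Brca2, whose products act together after BRCA1, did not pass 2-fold. Palb2 (ENSMUSG00000044702, chr7:122107262-122132985, minus strand) ranged from 0 to 374 normalized counts in N2B27 small cells and from 0 to 213 in ungated cells, with means of 35.2 and 18.3 and a log2 ratio of 0.91. It was clearly expressed in 4 of 20 and in 5 of 21 cells, so the higher mean came with no higher share of cells. Of its exon bases 5.64% are shared with the pseudogene Gm16326 on the opposite strand. Brca2 (ENSMUSG00000041147, chr5:150522630-150570329, plus strand) ranged from 0 to 547 in small and from 0 to 574 in ungated cells, with means of 63.6 and 96.5 and a log2 ratio of -0.59. It was clearly expressed in 5 of 20 small and 10 of 21 ungated cells, a difference of -22.6 percentage points with an interval of -46.9 to 6.53.

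Of the paralogs of BCDX2, Rad51b, Rad51c and Rad51d had higher means in N2B27 small cells and Xrcc2 a lower one. Rad51c (ENSMUSG00000007646, chr11:87376645-87404954, minus strand) is the member shared by both complexes and hence the direct partner of Xrcc3. Its values ran from 0 to 507 normalized counts in N2B27 small cells and from 0 to 259 in ungated cells, with a median of 0 in both, and the means were 58.2 and 15.7, a 3.71-fold difference, from 1490 (1415 to 1568) and 408 (369 to 450) counts. It was clearly expressed in 5 of 20 small cells and 3 of 21 ungated cells, a difference of 10.7 percentage points (-13.9 to 34.5). In the ungated group 1 cell held 82.4% of the counts. Rad51d (ENSMUSG00000018841, chr11:82876434-82890614, minus strand), whose product binds that of Xrcc2, ran from 0 to 511 in small and from 0 to 211 in ungated cells, with means of 71.1 and 20.4, a 3.48-fold difference, from 5 of 20 and 4 of 21 cells. These shares differed by 5.95 percentage points (-19.1 to 30.6).

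Rad51b (ENSMUSG00000059060, chr12:79297282-79814690, plus strand), whose product binds RAD51C, was clearly expressed in 2 of 20 N2B27 small cells and 4 of 21 ungated cells. Its highest values were 477 and 156 and its means 35.8 and 15.5, a 2.31-fold difference. This rests on 2 cells, of which 1 held 63.0% of the counts. Without the highest cell of each group the log2 ratio was 0.53, and in the 10 small and 4 ungated cells assigned to S phase it was -1.29. Xrcc2 (ENSMUSG00000028933, chr5:25689812-25705825, minus strand) ran from 0 to 422 in small and from 0 to 350 in ungated cells, with means of 39.0 and 77.7 and a log2 ratio of -0.98. It was clearly expressed in 4 of 20 small and 9 of 21 ungated cells.

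Rad54l (ENSMUSG00000028702, chr4:116094264-116123690, minus strand) drives strand invasion and was, beside Xrcc3, the member more than 2-fold lower in N2B27 small cells. It ran from 0 to 519 normalized counts in N2B27 small cells with a median of 0, and from 0 to 640 in N2B27 ungated cells with a median of 114. The means were 70.1 and 165, a 2.36-fold lower level in small cells, from 1857 (1774 to 1943) and 4088 (3964 to 4215) counts. Clear expression was seen in 5 of 20 small cells, or 25.0% (8.66% to 49.1%), and in 13 of 21 ungated cells, or 61.9% (38.4% to 81.9%), a difference of -36.9 percentage points (-59.1 to -6.57). In S phase cells alone, 10 small and 4 ungated, the log2 ratio was 0.77. Of its exon bases 15.4% are shared with Lrrc41 on the opposite strand, and the library does not mark strand, so reads there cannot be assigned.

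**Figure D2:**
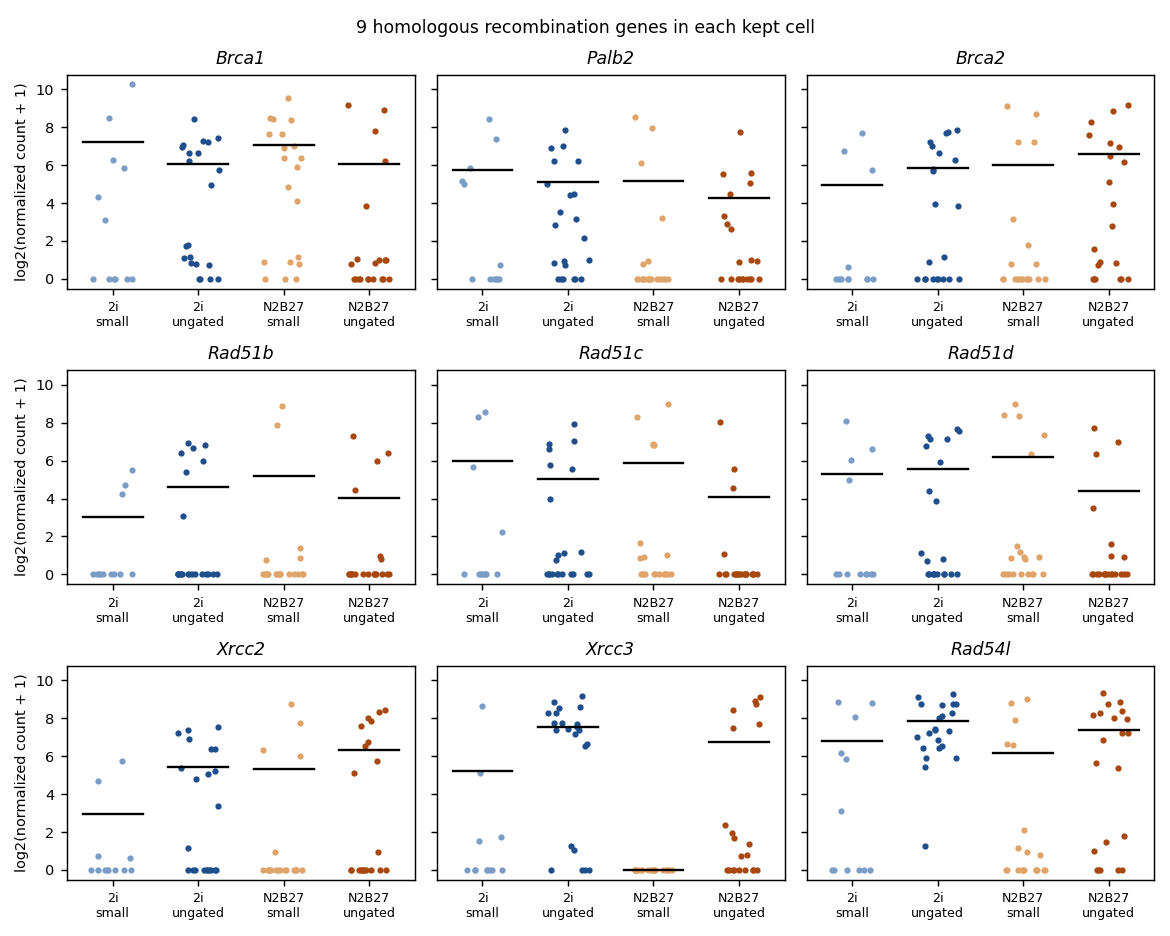
Normalized count of each member in each kept cell, as log2(normalized count + 1) on the vertical axis, by group, where each point is 1 cell and each line the log2 of the group mean plus 1. Xrcc3 lies at 0 in all N2B27 small cells, and Brca1 reaches 10 counts in 13 of those 20 cells.

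In 2i, 6 of 9 members had lower means in small cells, Xrcc3 included, as did 9263 of 14962 genes. Xrcc2, Xrcc3, Rad51b and Rad54l were more than 2-fold lower in 2i small than in 2i ungated cells, 4 of 9 members beside 33.9% of all genes. Brca1 was more than 2-fold higher, 1 of 9 members beside 15.6% of all genes. The median log2 ratio of the members was -0.86, beside -0.42 over all genes, but it was above 0, at 0.86, with spike-in size factors, under which the median of all genes was 0.71 and the ratios of Xrcc2 and Rad51b were above 0. Such size factors raise the values of 1 2i small cell with 0.0673% of its counts on spike-ins, against a group median of 3.47%. Its part in these signs was not tested. The comparison in 2i shares no cells with the one in N2B27, whereas the comparisons between media below reuse the same groups.

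Xrcc3 was thus lower in small cells in both media, but without a count only in N2B27. It ranged from 0 to 397 normalized counts in 2i small cells, with a mean of 36.2, and from 0 to 578 in 2i ungated cells, with a median of 171 and a mean of 186. Clear expression was seen in 2 of 12 small cells, or 16.7% (2.09% to 48.4%), and in 16 of 22 ungated cells, or 72.7% (49.8% to 89.3%), a difference of -56.1 percentage points (-74.6 to -21.0). Of its counts in 2i small cells 87.2% came from 1 cell. Rad54l had a count in all 22 ungated cells and was clearly expressed in 21 of them (95.5%, 77.2% to 99.9%), against 5 of 12 small cells (41.7%, 15.2% to 72.3%). Its means were 109 in small and 228 in ungated cells, a 2.09-fold lower level.

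Xrcc2 was 6.38-fold lower in 2i small cells, with means of 6.61 and 42.2 and clear expression in 2 of 12 and 11 of 22 cells. The means of Rad51b were 7.27 and 23.8, 3.28-fold lower in small cells, although 3 of 12 and 6 of 22 cells expressed it clearly, nearly the same share. Brca1 was 2.22-fold higher in the mean, at 145 and 65.4, yet clearly expressed in 5 of 12 small and 11 of 22 ungated cells. A cell with 1225 normalized counts carried this mean, and without the highest cell of each group the log2 ratio was -0.14. Rad51c (0.95), Palb2 (0.65), Rad51d (-0.27) and Brca2 (-0.86) stayed within 2-fold on the log2 scale.

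**Figure D3:**
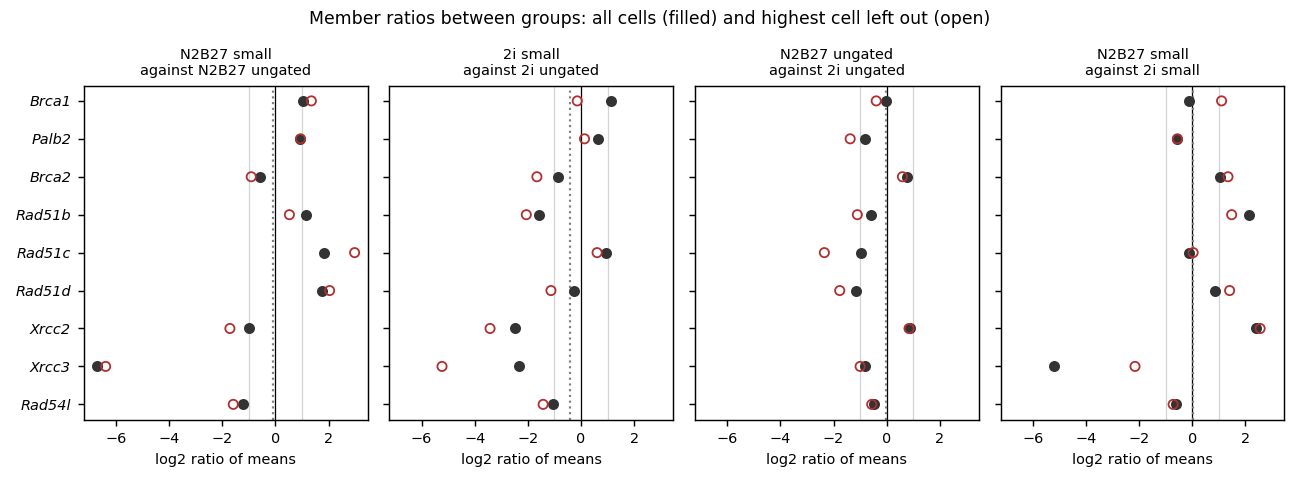
Log2 ratio of mean normalized counts (horizontal axis) for each member (vertical axis) in the 4 comparisons, with all kept cells (filled) and without the highest cell of each group (open); grey lines mark 2-fold and the dotted line the median of all genes tested. Xrcc3 lies left of -2 in both comparisons of small with ungated cells, and Brca1 in 2i moves from 1.14 to -0.14.

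Between ungated cells of the 2 media Rad51d was the only member past 2-fold, with means of 20.4 in N2B27 and 46.7 in 2i, so 1 of 9 members was lower by that much, beside 18.0% of all genes, and 0 of 9 higher, beside 13.5%. Of the log2 ratios, 7 of 9 lay below 0, beside 7777 of 14962 genes, with a median of -0.59 beside -0.04 over all genes. The median was below 0 in each of 16 alternatives, from -1.26 to -0.13, some of which could not change it. The mean of Xrcc3 was 105 in N2B27 and 186 in 2i (log2 ratio -0.81), but the share of clearly expressing cells was 28.6% (11.3% to 52.2%) against 72.7%, a difference of -44.2 percentage points (-64.6 to -14.3). Where it was clearly expressed, its median level was 388 in N2B27 and 210 in 2i. For Rad54l the share was 61.9% in N2B27 against 95.5% in 2i, a difference of -33.6 percentage points (-54.9 to -9.09).

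The remaining log2 ratios between ungated cells ran from -0.98 for Rad51c to 0.87 for Xrcc2. Xrcc2 and Brca2, the members above 0, had means of 77.7 and 96.5 in N2B27 and 42.2 and 55.8 in 2i. Their shares of clearly expressing cells were not higher in N2B27, with 9 of 21 against 11 of 22 cells for Xrcc2 and 10 of 21 against 11 of 22 for Brca2. Brca1 had nearly equal means, 65.0 and 65.4, from 5 of 21 and 11 of 22 cells.

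Between small cells of the 2 media, Xrcc3 was lower in N2B27 and Xrcc2, Rad51b and Brca2 were higher. That is 1 of 9 members lower by more than 2-fold, beside 19.8% of all genes, and 3 of 9 higher, beside 26.3%. The median log2 ratio was -0.11, beside 0.01 over all genes, and it lay above 0 in 10 of 16 alternatives. Against a floor of 3 counts in N2B27, the means of Xrcc3 differed 242-fold, which is again no lower bound. Its share of clearly expressing cells, 0 of 20 against 2 of 12, differed by -16.7 percentage points with an interval of -44.8 to 3.41. Xrcc2 had means of 39.0 and 6.61, Rad51b 35.8 and 7.27, and Brca2 63.6 and 30.3. Each of these 3 ratios was below 0 with spike-in size factors, which raise the values of the 2i small cell with few spike-ins. Brca1 was clearly expressed in 13 of 20 N2B27 and 5 of 12 of 2i small cells, with means of 134 and 145.

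**Figure D4:**
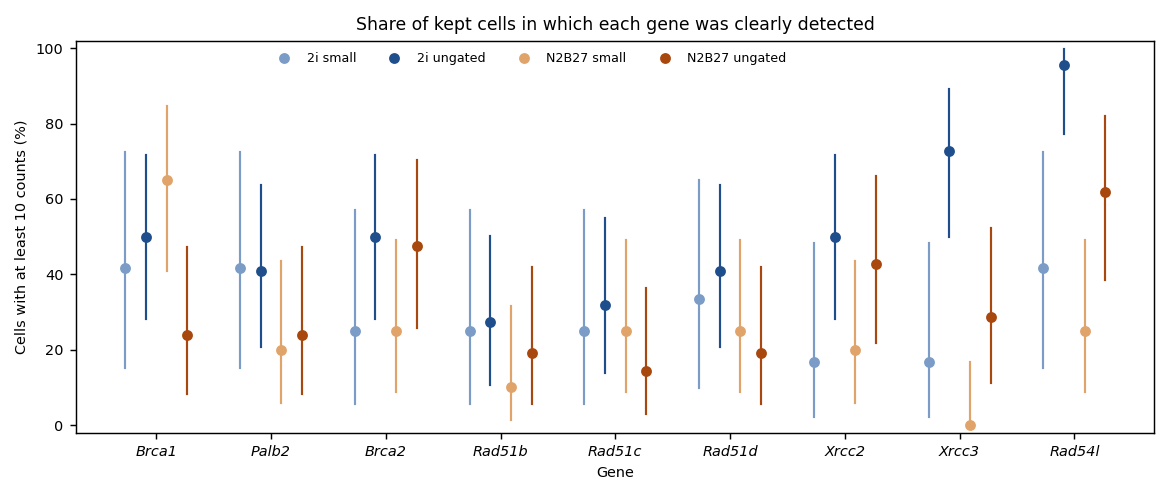
Share of kept cells with at least 10 counts of each member (vertical axis, percent), by gene and group, with points for the share and bars for the exact 95% Clopper-Pearson interval. Xrcc3 runs from 72.7% in 2i ungated to 0% in N2B27 small cells, and Brca1 is highest in N2B27 small cells at 65.0%.

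Joint expression of the genes of a complex was counted by cell. Over all 75 kept cells, Rad51c was clearly expressed in 18 and Xrcc3 in 24, and both of these CX3 genes in 7 cells, exactly 1 of them in 28 and neither in 40. None of the 4 genes of BCDX2 was clearly expressed in 24 cells, and all 4 were in 2 cells, both of them 2i small. Of these 2, 1 had 15712 genes detected and clearly expressed all 9 members. That cell therefore also enters the counts for CX3 and the mediators. Brca1, Palb2 and Brca2, clear in 34, 23 and 29 cells, were found together in 7 cells, 4 of them 2i ungated, and none of them in 18. In N2B27 small cells no cell expressed all 3 mediators, 14 of 20 expressed exactly 1 and 2 expressed none.

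Partners of Xrcc3 were also clearly expressed in cells without it. Of the 16 cells of 2i ungated that clearly expressed Xrcc3, 5 also expressed Rad51c, 7 Xrcc2, 7 Rad51d and 3 Rad51b, and of the 6 without it 2 expressed Rad51c, 4 Xrcc2, 2 Rad51d and 3 Rad51b. Rad54l was found in 15 of these 16 and 6 of these 6 cells, Brca1 in 9 and 2, Brca2 in 8 and 3 and Palb2 in 7 and 2. In N2B27 ungated cells Rad51c was found in 1 of 6 cells with and 2 of 15 without Xrcc3. Rad54l was found in 3 of 6 with and 10 of 15 without. In the same order Brca2 was found in 4 and 6 cells, Brca1 in 2 and 3 and Rad51d in 2 and 2. Xrcc2 was found in 2 and 7, Rad51b in 1 and 3 and Palb2 in 1 and 4. The 20 N2B27 small cells, all without Xrcc3, clearly expressed Brca1 in 13, Rad51c, Rad51d, Rad54l and Brca2 in 5 each, Xrcc2 and Palb2 in 4 each and Rad51b in 2.

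Assigned cell cycle phase moved with the gate. The cyclone method, which scores pairs of marker genes, put 6 of 12 of 2i small cells and 6 of 20 N2B27 small cells in G1, against 0 of 22 and 2 of 21 ungated cells, and put 14 of 22 and 15 of 21 ungated cells in G2/M. Of the members, 4 (Rad51c, Rad54l, Brca1 and Brca2) are among the marker genes, and leaving them out changed the phase of 2 of 75 cells. In N2B27 small cells the sum of the 9 members had a median of 180 normalized counts in the 6 G1 cells, 738 in the 10 S cells and 357 in the 4 G2/M cells. In 2i ungated cells it was 782 in 8 S cells and 640 in 14 G2/M cells, and in N2B27 ungated cells 434 in 4 S and 459 in 15 G2/M cells, beside 2 G1 cells at a median of 1198. In N2B27 small, most G1 cells lay on index row 503 and most S cells on row 502. These rows also differed in genes detected, at medians of 7010 and 7758. Phase therefore cannot be fully told apart from index row in that group.

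Xrcc2 had no count in any of the 14 cells assigned to G1, 6 of 2i small, 6 of N2B27 small and 2 of N2B27 ungated. In N2B27 small it had a count in 4 of 11 cells on index row 502. On row 503, where most G1 cells lay, 1 of 9 had a count. The share of all genes without a count in the 14 G1 cells was not taken. Xrcc3 was not clearly expressed in any of these 14 cells, but it was also missing from the 10 S and 4 G2/M cells of N2B27 small, while it was clear in 6 of 8 S and 10 of 14 G2/M cells of 2i ungated and in 1 of 4 S and 5 of 15 G2/M cells of N2B27 ungated. Brca1 was clear in 5 of 6 G1, 6 of 10 S and 2 of 4 G2/M cells of N2B27 small, and in 2 of 2, 0 of 4 and 3 of 15 cells of N2B27 ungated. The part of phase in the differences between gates was not tested, since a phase within a group holds few cells.

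**Figure D5:**
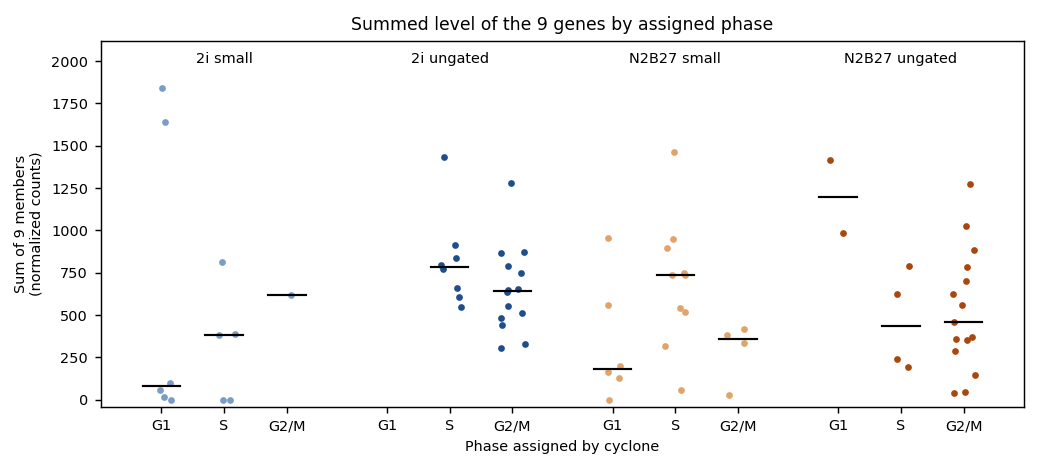
Sum of the normalized counts of the 9 members per cell (vertical axis) by group and by the phase that cyclone assigned, where points are cells and lines medians. N2B27 small cells in S have a median of 738 against 180 in G1, with most S and most G1 cells on different index rows. The highest value, 1843, belongs to a 2i small cell in G1.

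The small groups also differed within themselves. In 2i small, 7 cells on index row 502 gave 30 clearly expressed pairs of 63 (47.6%) and 5 cells on row 503 gave 2 of 45 (4.44%). The cells on row 503 had a median of 7283 genes and 5.02% of counts on spike-ins, against 8646 genes and 2.30% on row 502. The corresponding shares were 29.3% and 17.3% on both rows of N2B27 small, 45.5% and 56.6% in 2i ungated and 31.3% and 31.1% in N2B27 ungated. A 2i small cell with 15712 genes detected and 0.0673% of its counts on spike-ins clearly expressed all 9 members. Another, with 40.9% of its counts on spike-ins, held 1 count each of Rad54l and Brca1. Without both cells the median log2 ratio of the members in 2i was -0.82, against -0.86 with them. Primed epiblast markers moved with the gate as well. In N2B27 their sum had a median of 5.82 normalized counts in small cells (range 0.713 to 1700) and 352 in ungated cells (0.667 to 1041). In 2i the medians were 28.9 in small cells (2.47 to 831) and 290 in ungated cells (2.76 to 1311). Their part in the member differences was not tested.

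Other homologous recombination genes were taken as a list of 42. In N2B27 small against N2B27 ungated cells, 7 of them (16.7%) were more than 2-fold lower, beside 22.7% of all genes, and 8 (19.0%) higher, beside 16.7%, with a median log2 ratio of 0.09. In 2i, 11 (26.2%) were lower, beside 33.9% of all genes, and 6 (14.3%) higher, beside 15.6%, with a median of -0.17. Among those with a mean of at least 20 over the kept cells, the lowest ratios in N2B27 were those of Slx1b, a structure-specific nuclease gene, at -4.14 (means 2.30 and 57.1), and Fancd2, of the Fanconi anaemia pathway, at -3.95 (4.47 and 83.2). The highest with that mean were Rmi2, of the complex that dissolves double Holliday junctions, at 1.42 (43.8 and 15.8), and Gen1, a Holliday junction resolvase gene, at 1.40 (77.2 and 28.7).

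Non-homologous end joining is the other route for broken ends. Of 13 genes, 4 (30.8%) were more than 2-fold lower and 4 higher in N2B27 small cells, beside 22.7% and 16.7% of all genes, with a median of -0.18. In 2i 4 were lower and 4 higher, beside 33.9% and 15.6%, with a median of -0.16. Prkdc, the catalytic kinase of this route, was higher with means of 196 and 76.2 (log2 ratio 1.35). Rif1, which restrains end resection and so opposes BRCA1, had means of 996 and 391 (1.35) and was clear in 19 of 20 small and all 21 ungated cells. Poll, a DNA polymerase gene, was lower at 11.2 and 77.2 (-2.69), and Nhej1 had means of 43.2 and 75.8 (-0.80).

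Genes that varied most like the members over cells were sought among all others. Over 75 kept cells and 6636 genes with enough counts, the highest Spearman correlations with the sum of the 9 members were 0.47 for Tmem134, 0.47 for Ppp1r8, 0.45 for Clic1, 0.43 for Kdelc1 and 0.42 for Zfp644. The cells share 4 samples and 2 plates, and the same sum correlated at 0.30 with the number of genes detected and at -0.08 with the spike-in share, so these values are a description only.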

How the data were processed

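RNA was sequenced from 96 single mouse ES cells in 4 samples, by Smart-seq2, which covers whole transcripts and carries no molecular identifiers, so reads are not independent molecules. The authors trimmed reads with Trim Galore 0.4.4, aligned them to GRCm38 (mm10) with GSNAP, counted them on Ensembl release 81 genes with HTSeq and deposited raw counts, a table per plate. Columns carry index pairs, all 48 of which both plates share, and each was matched to its sample through the deposited run list. Rows that name no gene stayed out, among them reads on no feature (4.81% of counts), on more than 1 gene (6.77%) and not aligned (11.1%).

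With scater 1.30.1, a cell was left out for too few counts, too few genes or too high a mitochondrial share. Each limit was set per plate, at a distance of 3 median absolute deviations. Counts and genes had no upper limit. These limits kept 75 cells. Cells were sorted into wells, and doublets were not called. Whether the 2i small well with 15712 genes detected, against at most 10335 in 2i ungated, held a single cell was not tested. Counts were divided by DESeq2 1.42.0 size factors from 1227 genes counted in every kept cell. A ratio is that of group means of normalized counts after adding 1 to each, and genes with a mean of at least 1 over kept cells entered it. A gene counts as different at 2-fold or more, with no p-value, since each group is 1 sample. Phases came from cyclone in scran 1.30.0 (R 4.3.3), other steps from Python 3.11.15 with scipy 1.17.1 and pandas 2.3.3. Summed counts have exact Poisson intervals, shares exact Clopper-Pearson intervals and their differences Newcombe intervals, at 95%. Positions are from GENCODE M21. Promoter windows are those of the RefSeq start site nearest the annotated gene start.

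Members and lists were chosen with earlier results of these data known. Named beside the 9 members were the 2 genes of each list highest and lowest in N2B27 small against ungated cells with a mean of at least 20, and the 5 genes correlating best with the members. A further gene of the rule is not reported here. Alternatives varied the filter on cells, size factors (CPM, scran, DESeq2 poscounts, ERCC spike-ins), the summary over cells, pseudocounts of 0.5 and 5, depth and phase. Asking members for a mean of at least 20 dropped none and so changed nothing. Leaving out 2 cells of 2i small could change only comparisons with that group. S phase cells assigned without members among the markers were added after seeing the data.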

Additional observations from a re-analysis of the deposited data

Results flagged for a closer look

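Rad51b moved in opposite directions between the media, which is why it is listed here. Its log2 ratio of small against ungated cells was 1.16 in N2B27 and -1.59 in 2i. The difference between these ratios was not tested, because each group is 1 sample. Rad51b was clearly expressed in 2 of 20 and 4 of 21 cells of N2B27 small and ungated, and in 3 of 12 and 6 of 22 cells of 2i small and ungated.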

How the results depend on the processing

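No paired analysis was possible because each group is 1 sample, and for the same reason no replicate could be left out. Of the 16 alternatives, medians of the member ratios moved beyond the spread of the members in 3 places. Between ungated cells of both media the median was -1.26 with means of log2 values and -0.999 without the highest cell of each gene, against -0.59. Between small cells it was -1.85 with ERCC size factors, against -0.11, where the median of all genes itself was -1.50. The share of N2B27 ungated cells with Xrcc3 was 28.6% at 10 counts or more, against 57.1% at any count. ERCC size factors moved the median of all genes to -0.77 between N2B27 small and ungated cells and to 0.71 between 2i small and ungated cells, and DESeq2 poscounts moved the former to 0.19. The member medians beside them were -0.16, 0.86 and 1.46.

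Among members past 2-fold, some turned. Between N2B27 small and ungated cells Rad51b was -0.16 with ERCC size factors, -0.25 with means of log2 values, -1.29 in S phase cells and -1.42 in S phase cells assigned without members among the markers, and Rad54l was 0.77 and 0.63 in those S phase cells. Between 2i small and ungated cells Xrcc2 was 0.21 and Rad51b 0.56 with ERCC size factors, and Brca1 was -0.56 with means of log2 values, -0.14 without the highest cell, and -1.52 and -1.31 in both sets of S phase cells. Between small cells Xrcc2 was -0.70, Rad51b -0.96 and Brca2 -1.85 with ERCC size factors, and Rad51b was -0.21 with means of log2 values. The causes were not tested. Xrcc3 was below -1 in all 16 alternatives between N2B27 small and ungated cells, and Rad51c was above 1 in all 16. Rad54l was below -1 in 13, Rad51d and Brca1 were above 1 in 12 each and Rad51b in 10. Some of the 16 could not change these ratios, among them leaving out cells of 2i small. Xrcc3 was also the gene from which the choice of members started. Each mean rests on 12 to 22 cells, of which 0 to 21 clearly expressed the member.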

Other observations

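Xrcc3 differed between index rows of one sample. In 2i ungated cells it was clearly expressed in 11 of 11 cells on index row 511, with a mean of 246 normalized counts, and in 5 of 11 on row 510, with a mean of 125. The rows were alike in genes detected, with medians of 9569 and 9462. In N2B27 ungated cells the order was the other way, with 2 of 10 cells on row 511 and 4 of 11 on row 510. Rad51c in N2B27 small cells was clear in 5 of 11 cells on row 502 and 0 of 9 on row 503, and Palb2 in 4 of 11 and 0 of 9.

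Wells left out by the quality limits held members too. In N2B27 small wells that were left out, Rad51d had 1015 counts over 4 wells, of which 1 well held 1011. Brca1 had 577 over 2, of which 1 well held 576, and Rad51b had 207 in 1. In 2i small wells Brca2 had 626 counts over 4, of which 1 well held 623. Xrcc3 had 1 count in those N2B27 small wells.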
